A study of Mus musculus with 5 samples.

Results

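Mutant RNF12-only distal sites are places on chromatin where a peak was called for RNF12 H569A,C572A (mutant RNF12 below), but not for wild-type RNF12 or for REX1, and whose summit is more than 1000 bp from every annotated transcription start site (TSS). The members were chosen by these measured values, namely the positions of the mutant peaks, their lack of a 1 bp overlap with a peak of either other list, and their distance to TSSs, so none of these is a finding. On chromosomes 1 to 19 and X, 42107 peaks met the rule, out of 98124 peaks in the mutant list and 291776 in all 3 lists. They made up 62.8% (95% interval 62.4% to 63.2%) of the 67033 distal mutant peaks, a share that the rule itself fixes. A further 5672 mutant-only peaks lay within 1000 bp of a TSS and are not members.

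RNF12, also named RLIM, is a RING-type E3 ubiquitin ligase encoded on the X chromosome. It marks the transcription factor REX1, the product of Zfp42, for degradation by the proteasome, and through this takes part in X chromosome inactivation and in developmental gene expression. The H569A and C572A substitutions lie in the RING domain and remove the catalytic activity. Much of the mouse genome away from genes consists of copies of mobile elements and of short tandem repeats. B1 elements are short interspersed elements (SINEs) that derive from the RNA of the signal recognition particle and are frequent near genes, while intracisternal A particle (IAP) elements are retrotransposons with long terminal repeats (LTRs), and CA repeats are tandem arrays of a dinucleotide.

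Chromatin immunoprecipitation and sequencing was performed in female mouse embryonic stem cells (mESCs) of the hybrid 129/Sv-Cast/Ei background. The mutant and wild-type libraries came from Rlim+/- cells that carried FLAG-V5-RNF12(H569A,C572A) or FLAG-V5-RNF12 WT as a stably integrated transgene under the CAG promoter, and kept the endogenous Rlim allele. The REX1 library came from WT cells with FLAG-V5-REX1. RNF12 cells were treated with 15 µM of the proteasome inhibitor MG132 for 3 h and cross-linked with 2 mM disuccinimidyl glutarate (DSG) and 1% formaldehyde, and all 3 proteins were precipitated through the V5 tag. The labels place the REX1 library in this series, whereas the paper refers its binding sites to previous work, and the source was not settled here. Each list rests on 1 library, and the conditions were therefore compared without replicates or tests. Beside each share stands its 95% Wilson interval, and beside each difference of shares a Newcombe interval. Both cover counting error only, since peaks of 1 library are not replicates. As a background for sequence, 480435 distal windows, reaching 50 bp to either side of a point, were taken every 5000 bp of the genome under the same TSS rule and are called distal genome windows.

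Several sequences show what lay under the summits. The B1 element is represented by the member with the highest fold enrichment among those that hold the most widespread 16-base word, which is in capitals. It is at chr8:60646779-60646879 (mm10, plus strand, as are all sequences here), in an intron of Mfap3l, and has a fold enrichment of 16.8.
B1 member in Mfap3l: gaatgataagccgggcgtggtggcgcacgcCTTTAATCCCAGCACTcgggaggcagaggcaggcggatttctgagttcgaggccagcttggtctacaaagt
The 32 bases at its summit occur 6180 times in the genome. The next 3 sequences belong to the members with the highest fold enrichment among those whose 32 summit bases, in capitals, occur at no other place. They are at chr2:133233964-133234064, chr1:5197334-5197434 and chr16:88796596-88796696, with fold enrichments of 24.2, 21.7 and 21.1.
Chromosome 2 member: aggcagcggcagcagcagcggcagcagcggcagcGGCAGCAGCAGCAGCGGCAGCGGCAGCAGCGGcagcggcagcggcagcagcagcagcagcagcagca
Chromosome 1 member: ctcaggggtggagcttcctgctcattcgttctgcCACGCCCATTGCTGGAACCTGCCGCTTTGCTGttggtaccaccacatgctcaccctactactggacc
Chromosome 16 member: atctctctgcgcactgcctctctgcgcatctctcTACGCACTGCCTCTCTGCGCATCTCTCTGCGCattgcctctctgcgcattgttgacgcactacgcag
The chromosome 2 and chromosome 16 windows are tandem arrays although their summit words are unique, and all 3 summits are soft-masked, which means written in lower case in the reference. In the sequences printed here, case marks only the stated word or string and says nothing of masking. The members with the highest fold enrichment among those holding the fixed B1 string GAGGCAGAG, in capitals on either strand, are at chr12:55339172-55339272 in an intron of 1110008L16Rik (fold enrichment 20.6) and at chr15:81266036-81266136 in an intron of 8430426J06Rik (17.8).
Chromosome 12 member: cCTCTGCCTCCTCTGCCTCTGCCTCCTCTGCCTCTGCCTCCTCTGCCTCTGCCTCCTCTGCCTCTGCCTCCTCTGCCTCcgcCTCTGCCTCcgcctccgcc
Chromosome 15 member: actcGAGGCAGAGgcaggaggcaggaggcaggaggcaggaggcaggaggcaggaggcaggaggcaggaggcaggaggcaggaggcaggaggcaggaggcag
Both are tandem arrays and not whole B1 elements, so the string alone does not mark an element. For contrast, the highest member with a single-copy summit word and no soft-masked base in the window lies in an intron of Kdm6b, which encodes a histone H3 lysine demethylase, at chr11:69410899-69410999 (fold enrichment 16.4). This class of members and the B1 member in Mfap3l were added after the values were seen. Capitals in the Kdm6b member again mark the 32 summit bases.
Kdm6b member: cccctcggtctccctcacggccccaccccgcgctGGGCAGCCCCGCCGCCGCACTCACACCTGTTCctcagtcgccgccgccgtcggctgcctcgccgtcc
Its peak is 30 bp from a REX1 peak and 151 bp from a wild-type RNF12 peak, so it lies just outside the overlap rule.

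The members lay mostly on sequence that is repeated in the genome. The 32 bases centred on the summit occurred more than 1 time at 78.7% of members (78.3% to 79.1%), against 50.3% (49.7% to 50.9%) of the 24926 distal mutant peaks that overlap another list, 5.43% (5.19% to 5.69%) of 30659 wild-type RNF12-only distal peaks, 9.69% (9.40% to 9.99%) of 39116 REX1-only distal peaks and 16.6% of distal genome windows. The members exceeded the shared mutant peaks by 28.4 percentage points (27.7 to 29.2), the wild-type-only peaks by 73.3 (72.8 to 73.8) and the REX1-only peaks by 69.0 (68.5 to 69.5). They were higher on 20 of 20 chromosomes in each comparison. At least 100 copies of the summit word were found for 47.4% of members and at least 1000 copies for 23.5%, against 0.630% and 0.329% of wild-type-only peaks. The median member had 78 copies. Whereas the members stood above the distal genome windows, the wild-type-only and REX1-only peaks stood below them. Both of these sets leave out peaks that overlap a mutant peak. Over all distal peaks of the wild-type and REX1 lists the shares were 22.2% and 20.8%, above the windows.

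**Figure D1:**
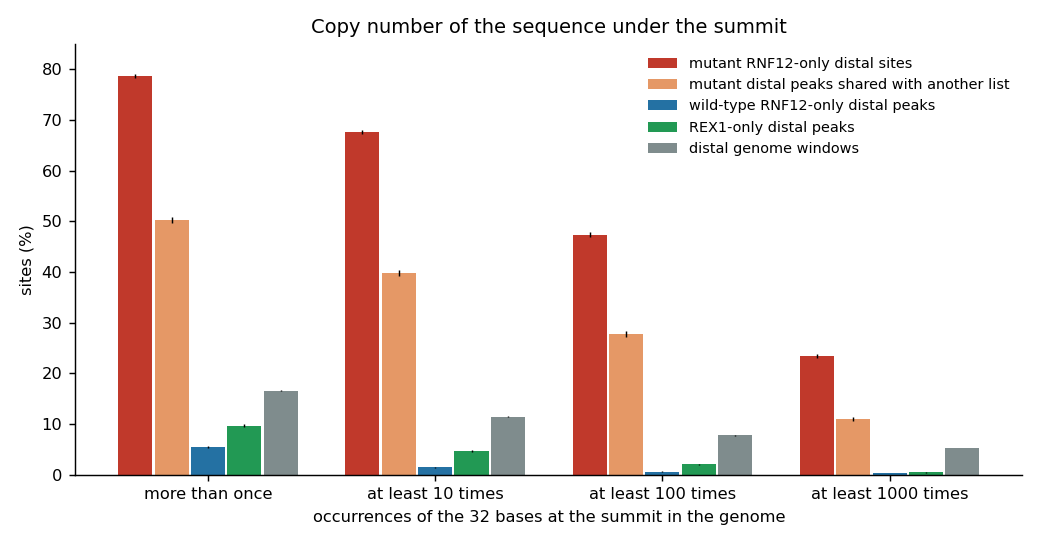
Share of sites (y axis, %) whose 32 summit bases occur more than 1 time, at least 10, 100 or 1000 times in the genome (x axis), for members, shared mutant distal peaks, wild-type RNF12-only and REX1-only distal peaks and distal genome windows. Error bars are 95% Wilson intervals. At every cut the members are highest, from 78.7% to 23.5%, and the wild-type-only and REX1-only peaks lie below the genome windows. Both of the latter sets leave out peaks that overlap a mutant peak.

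The repeats were centred on the summits. Away from the summit, in windows 300 bp to either side, 40.8% of 32-base words were multi-copy, so the summit share was 1.93 times that of the flanks, while the ratio was 1.44 for shared mutant peaks, 1.00 for wild-type-only and 1.01 for REX1-only peaks. Soft-masked bases also peaked at member summits. The summit base was soft-masked at 81.1% of members (80.7% to 81.4%), 49.8% of shared mutant, 12.4% of wild-type-only and 19.8% of REX1-only distal peaks, and 35.0% of distal genome windows. Around the members, the share fell from 81.1% at the summit to 66.6% at 100 bp, 56.1% at 200 bp and 49.6% at 1000 bp. Only 10.4% of members (10.1% to 10.7%, 4377 sites) had a single-copy summit word and no soft-masked base within 50 bp, against 64.6% of wild-type-only and 55.8% of REX1-only peaks. The GC content within 50 bp of the summit had a median of 59.4% in members, 46.0% in their flanks and 41.6% in the genome windows, and the wild-type-only peaks had the same median of 59.4%.

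**Figure D2:**
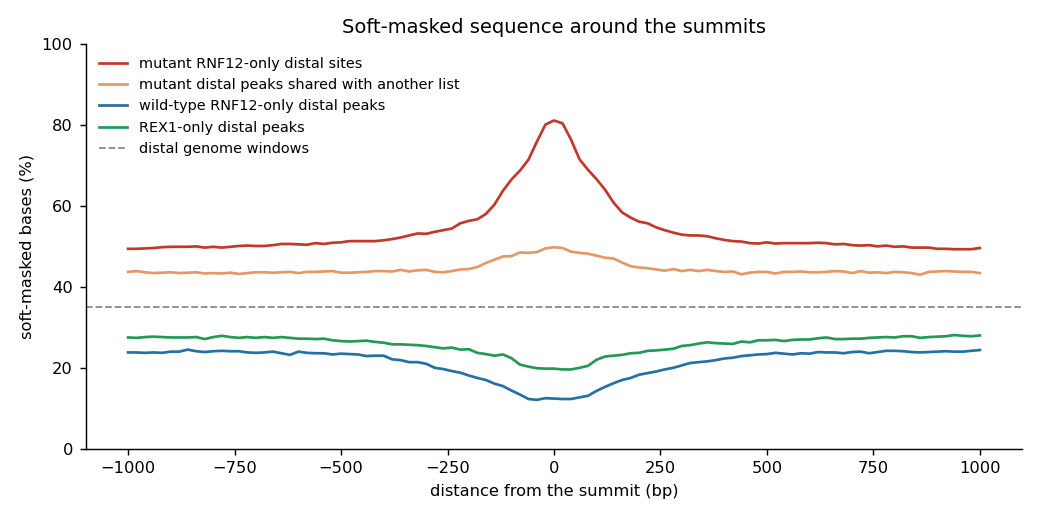
Soft-masked bases (y axis, %) by distance from the summit (x axis, bp, from -1000 to 1000) for the 4 sets of distal peaks, with distal genome windows as a dashed line at 35.0%. Members rise to 81.1% at the summit, whereas wild-type RNF12-only and REX1-only peaks dip to 12.4% and 19.8%. Both of the latter sets leave out peaks that overlap a mutant peak.

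The difference in repeats was a property of the mutant list as a whole and not of the members alone. Of all distal peaks, 68.2% (67.8% to 68.5%) had a multi-copy summit word in the mutant list, 22.2% (21.8% to 22.5%) in the wild-type list and 20.8% (20.5% to 21.1%) in the REX1 list. Within 1000 bp of a TSS the shares were 13.8%, 5.60% and 5.07%. Among mutant distal peaks that overlap another list, 63.0% were multi-copy where the partner was REX1 alone, 47.9% where it was wild-type RNF12 alone and 46.2% where it was both. The reads were 36 bases long, and how those with several positions were treated in each library is not given in the sources used here. The part that read placement or the control libraries play in the difference was not tested.

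Near the limits of the rule the members were less repetitive. Just outside the TSS limit, the 310 members with a summit at most 100 bp beyond it had a median fold enrichment of 5.84 and 52.6% multi-copy summits, and the 316 mutant-only summits at most 100 bp inside it had 5.82 and 58.2%. The 549 members less than 50 bp from a peak of another list had a median of 5.44 and 33.0% multi-copy summits, while 1071 shared peaks with an overlap under 50 bp had 5.29 and 27.4%. The median member was 12179 bp from the nearest wild-type RNF12 peak and 10447 bp from the nearest REX1 peak, and 20.2% (19.8% to 20.6%) lay within 1000 bp of either.

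Stronger members were more repetitive. Members had a median fold enrichment over the control of 6.12 (10% of members were below 4.18 and 10% above 10.6, maximum 36.5), a median -log10 q of 8.03 and a median width of 116 bp, where 92 bp is the narrowest peak in the list. When members were ordered by -log10 q and split into 10 equal parts, the multi-copy share rose in every step, from 54.3% (52.8% to 55.8%) in the lowest part to 96.2% (95.6% to 96.8%) in the highest. The share outside genes was 45.5% in the lowest and 74.4% in the highest part. The B1 string took another course, with 10.0% in the lowest part, 31.4% in the seventh and 2.07% in the highest. Strength and copy number come from the same library, so this is a description. The median -log10 q was 12.1 in shared mutant, 4.11 in wild-type-only and 4.74 in REX1-only distal peaks. The sets compared above were thus not matched for strength.

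**Figure D3:**
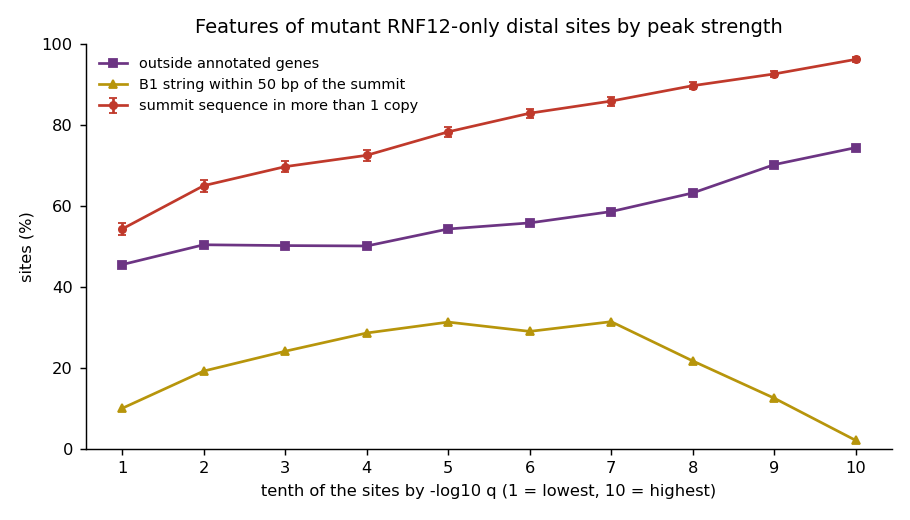
Share of members (y axis, %) with a multi-copy summit word (circles, bars are 95% Wilson intervals), outside annotated genes (squares) and with the B1 string (triangles) in each of 10 equal parts of the members by -log10 q (x axis, 1 lowest, 10 highest). The multi-copy share rises from 54.3% to 96.2% and the B1 share falls to 2.07% in the highest part.

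All 5 members with the highest fold enrichment were soft-masked and multi-copy. They were at chromosome 15, 82363289 to 82363733 (fold enrichment 36.5, 40 copies, 9279 bp from a TSS of Ndufa6, a subunit of mitochondrial complex I), chromosome 17, 9351425 to 9351692 (33.6, 655 copies), chromosome 3, 17649231 to 17649553 (32.9, 1476 copies), chromosome 14, 109746828 to 109747044 (32.3, 1316 copies) and chromosome 5, 105728034 to 105728274 (30.4, 220 copies, in an intron of Lrrc8d, a subunit of volume-regulated anion channels). Of the 1000 highest, 97.3% were multi-copy and 71.9% outside genes. The remaining single-copy members of the 5 highest were at chromosome 9, 67650451 to 67650605 (20.5) and 35812488 to 35812655 (20.0), both intergenic and soft-masked. The chromosome 2 and chromosome 16 members shown above had REX1 peaks 373 bp and 85 bp away.

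Fewer than 50% of members fell into a small number of sequence groups. To group them, the 16-base word held by most members within 50 bp of the summit was taken, the members with it were set aside, and the step was repeated, which gave 12 groups with 18829 members (44.7%). Of the 23278 members left, 65.9% were multi-copy. The grouping was chosen after values were seen, and the groups are numbered by size. Only groups whose words are well known were given a name, from general knowledge and without a repeat annotation, which was not used here.

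Groups 1, 4 and 12, with the words AGTGCTGGGATTAAAG, TCTGAGTTCGAGGCCA and CCTGCCTCTGCCTCCC, are parts of B1 and together held 8230 members (19.5%, 19.2% to 19.9%). The string GAGGCAGAG was within 50 bp of 21% of member summits (20.6% to 21.4%) compared with 1.26% of the flanks, 16.6 times as often. Among members from the 20000 strongest peaks of each list the ratio was 2.19. It was at 2.16% of shared mutant, 2.01% of wild-type-only and 1.33% of REX1-only summits, and in 0.917% of distal genome windows. Of the 98093 genome copies of the group 1 word, 7.25% lay inside a mutant peak, 0.471% inside a wild-type RNF12 peak and 0.308% inside a REX1 peak, so most exact copies of this word had no peak in any list. The 8-base words that differed most between member summits and flanks, AGGCAGAG (28.4% against 2.56%), GAGGCAGA, CCTCTGCC, GCAGAGGC and AGAGGCAG, overlap each other and the B1 string. By contrast, the B2 string GAGATGGCT, from another SINE family, was at 0.131% of member summits and 0.671% of flanks.

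Group 2, with 2474 members (5.88%), holds GGGAAGGCAGAGCACA, which belongs to IAP LTRs. Of its 3893 genome copies, 69.8% lay inside a mutant peak, 1.13% inside a wild-type and 3.60% inside a REX1 peak. The choice of the word from members largely sets the higher share in mutant peaks than in the other lists. The cyclic AMP response element (CRE), TGACGTCA, bound by the CREB and ATF family of factors, was within 50 bp of 4.45% of member summits (4.26% to 4.65%) and in 0.284% of flanks, a ratio of 15.7, against 0.0518% of genome windows. Of the 1873 members with it, 1661 (88.7%) were in group 2. CCAATCAG, the box read by the NFY factor, was at 4.73% of member summits and 0.980% of flanks, a ratio of 4.83, and 74.6% of the 1991 members with it were in group 2. Both strings were also centred on shared mutant distal summits, with the CRE at 0.481% of summits and 0.0501% of flanks, a ratio of 9.60, and CCAATCAG at 2.64% and 0.451%, a ratio of 5.86. A string within an element present in many copies is counted at each copy, so most of the members' shares, 88.7% for the CRE and 74.6% for CCAATCAG, came from 1 group of like sequences.

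The other groups varied in strength and coverage. Group 3, the CA repeat, held 2102 members, but only 1.13% of the 2976574 genome positions of its word lay in a mutant peak. Group 5 (AGAGGCAGAGGCAGAG, a tandem array, 1076 members) had 82.7% of positions in a mutant peak and 2.21% in a wild-type peak. Group 6 (ACTCGAGCCCCGGGCT, 977 members) had the highest median fold enrichment, 12, and made up 21.9% of the 1000 strongest members. Its word was also within 50 bp of 3.47% of shared mutant distal summits, against 2.32% of member summits, and the group 11 word of 1.76% against 1.56%, so neither is particular to members. Of the 7380 genome copies of the group 6 word, 98.3% lay in a mutant, 12.3% in a wild-type and 0.230% in a REX1 peak. Group 10 (AGTTCAGAACTTTCAG, 736 members) had a median fold enrichment of 10.7, with 88.5% of 884 copies in a mutant peak, 2.26% in a wild-type and 0% in a REX1 peak. Group 11 (CACCAGAGGTCTTAGG, 606 members) had 87.6% of 9051 copies in a mutant peak and 14.7% in a wild-type peak. Groups 7, 8 and 9 had 86.0%, 81.0% and 70.9% of their copies in mutant peaks and 4.78%, 10.7% and 0.170% in wild-type peaks. The words were selected from members, which are mutant peaks without a wild-type or REX1 peak, so a higher share in mutant peaks than in the other lists is largely set by that choice and is given as a description. Copies in 1 tandem array can fall under 1 peak and are not independent.

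**Figure D4:**
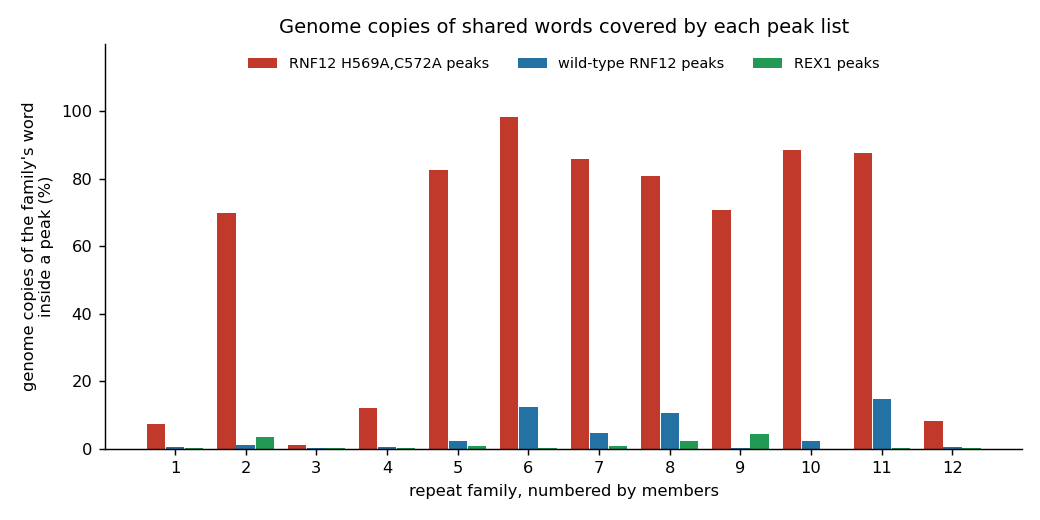
Share of genome copies of each group's 16-base word (y axis, %) inside peaks of the mutant RNF12, wild-type RNF12 and REX1 lists, for groups 1 to 12 (x axis, numbered by members). Mutant peaks hold 98.3% of copies in group 6 but 7.25% in group 1, a B1 word, and wild-type peaks hold at most 14.7%, in group 11. The words come from mutant-only members, so a higher share in mutant peaks than in the other lists is largely set by the choice.

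A minority of members held the strings of REX1 or RNF12. The REX1 string ATGGCNGC, which overlaps the YY1 core AAGATGGC, was at 0.819% of member summits (0.738% to 0.910%) and in 1.86% of flanks, compared with 9.53% of REX1-only summits. The YY1 core was at 1.16% and 1.69%. The RNF12 motif of the study, searched as a degenerate word of 15 letters with 1 mismatch, was at 2.37% of members (2.23% to 2.52%) and 0.273% of flanks, a ratio of 8.69. It was at 15.8% of shared mutant distal peaks, 0.359% of wild-type-only and 0.228% of REX1-only peaks and in 0.174% of genome windows. The paper drew this motif from the wild-type RNF12 peaks of the same data. Of the shared mutant peaks, 9312 overlapped both other lists and 10631 wild-type RNF12 alone. Their share is thus not independent of where the motif was found. Of the 999 members with the motif, 84.5% were multi-copy. In the 4377 members with single-copy, unmasked summits, a subset added after the values were seen, the REX1 string was at 3.20% (2.72% to 3.76%) of summits and 1.47% of flanks, the reverse order, and the RNF12 motif was at 0.274% of summits (12 members) and 0.114% of flanks, a ratio of 2.40. The choice of unmasked, single-copy summits removes repeats from the summit but not from the flanks. The order was not particular to the REX1 string in this subset. The KLF string GGGNGNGGC was at 6.83% of summits and 3.63% of flanks, and the E-box CACGTG at 3.91% and 1.74%. Other strings were lower at summits, such as the AP-1 string TGANTCA (1.83% against 2.62%). The leading 8-base words in this subset, GCAGCAGC (4.55% against 1.12%) and CCAGCAGC (4.55% against 1.34%), were CAG-type runs. All strings were searched on both strands, and of 28 strings those most relevant to the families are given. Over all members, the KLF string was at 5.11% of summits and 1.77% of flanks, and the E-box at 4.05% and 1.15%. Of the members with them, 0.139% and 0.117% were in group 2. At shared mutant distal summits these strings were at 7.91% and 3.14%. The AP-1 string was rarer at member summits (0.653%) than in flanks (2.11%).

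Position in genes depended on the copy number. Of the members, 57.3% (56.8% to 57.8%) lay outside annotated genes, 35.9% in introns, 4.44% in coding exons, 1.19% in untranslated regions and 1.17% in other exons. The share outside genes was 49.0% for shared mutant, 31.9% for wild-type-only and 42.1% for REX1-only distal peaks, with the members higher on 20 of 20 chromosomes in each case. It was 54.5% for the genome windows, and the members were higher on 15 of 20 chromosomes. Of the 8958 single-copy members, 37.5% lay outside genes. Multi-copy summits made up 86.1% of intergenic and 77.5% of intronic members, but 8.29% (7.13% to 9.63%) of the 1869 members in coding exons. The B1 string was at 31.3% of intronic, 16.4% of intergenic and 0.482% of coding-exon members. Members in coding exons fell in the bodies of 1559 coding genes, 1291 of which had a single such member, and GCAGCAGC was their leading word (8.13% of summits, 1.74% of flanks). Coding exons held 4.44% of members against 1.05% of the genome windows, and 16.5% of shared mutant and 14.3% of wild-type-only peaks.

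At least 1 member lay in the body of 16.7% of all 53843 annotated genes and of 33.1% of the 21755 protein-coding genes. Among coding genes, the share rose with length, from 5.30% in the shortest of 4 equal groups to 71% in the longest. Gm20388, a model that spans 4435 kb of chromosome 8 and many other genes, held 186 members. Flg2, which encodes the epidermal protein filaggrin-2, followed with 50 members in 24.1 kb, or 2073 per Mb, and only 2 of these were single-copy. Fgfr2, a fibroblast growth factor receptor, had 42 over an annotated length of 2961 kb. This is 14.2 per Mb, below the 15.1 per Mb of all coding genes. The lipoprotein receptor family member Lrp1b had 26, the transcription factor gene Camta1 24, Gse1 24 and Etl4 21, and the overlapping models Gm42416, Gm37013 and Gm37388 had 23, 22 and 22. Gse1, with 23 single-copy members of 24, and Lrp1b, with 1 of 26, stood at opposite ends. Among coding genes with at least 5 members, Flg2 was followed per Mb by Obox6 (777), an oocyte-specific homeobox gene, Mansc4 (418), Mknk2 (391), a kinase of the translation factor eIF4E, and Sppl2b (372), an intramembrane protease, with 5 members each.

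Most genes named for the X inactivation centre, pluripotency and development held few members or none. In the X inactivation centre, Chic1 had 1 member. Xist, the RNA that coats the inactive X, its antisense partner Tsix, the activator Jpx, Ftx and Rlim itself had 0. Of 25 naive pluripotency genes, 7 (28.0%) had a member, led by Esrrb, a nuclear receptor, with 4, and Tet2, a 5-methylcytosine dioxygenase, with 3, then Nanog and Nr5a2 with 1 each. Zfp42, which encodes REX1, had 0. Of 15 genes of the primed state and fibroblast growth factor signalling, 7 (46.7%) had a member. Fgfr2, with its long annotated body, held 42 of the 55 members in this list. It was followed by the DNA methyltransferase Dnmt3a with 5, Fgfr1 with 3 and Etv5 with 2. Of 24 developmental transcription factor genes listed, 10 (41.7%) had a member, with 5 in Runx1 and 3 each in Cdx2 and Gata4. Of 21 proteotoxic stress gene models, 5 (23.8%) had a member, with 2 in Psmd11, a proteasome subunit, and 1 each in Bag3, Hsf1 and Hsf2, while Hspa1a, Hspa1b and Hsph1 had 0. These shares were near or below the 33.1% of all coding genes except for the primed and developmental lists, which hold few genes of unequal length.

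The long neuronal genes and the large gene families differed in density. All 23 neuronal adhesion and synapse genes held a member, 261 in total, but at a median length of 1448 kb their density was 7.47 per Mb, against 15.1 per Mb over all coding genes. Lrp1b (26), Cntnap2 (20), Csmd1 (19), Dlg2 (17) and Dmd (17) had the most, and 0.687 single-copy members per Mb were found over the list against 5.03 over coding genes. Of 397 zinc finger genes named Zfp, 136 (34.3%) held a member at 18.4 per Mb, with 8 each in Zfp704 and Zfp935. Of 1135 olfactory receptor genes, 18 (1.59%) held a member at 2.74 per Mb, and of 331 vomeronasal receptor genes 40 (12.1%) at 12.3 per Mb, with 5 each in Vmn2r7 and Vmn2r97. The olfactory receptor genes thus had both a low share and a low density.

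Members were spread over all chromosomes more evenly than wild-type-only peaks. Their density ranged from 13.7 per Mb of non-N sequence on chromosome 3 to 19.3 on chromosome 17, while wild-type-only distal peaks ranged from 3.38 on chromosome 12 to 23.0 on chromosome 11. On chromosomes 10, 12 and X, where wild-type-only peaks were at 4.70, 3.38 and 3.46 per Mb, members were at 16.3, 18 and 17.0. REX1-only distal peaks were at 15.3, 28.1 and 5.66 per Mb there, and 28.1 was the highest of any chromosome. The density on chromosome 12 was 1.10 times that of the other chromosomes (1.05 to 1.15), but 0.939 times (0.851 to 1.04) when only the 20000 strongest peaks of each list were used. Members made up 66.7% of distal mutant peaks on chromosome 12, the highest share, and 57.7% on chromosome 11, the lowest. As the rule removes mutant peaks that meet a wild-type or REX1 peak, a chromosome with few peaks of those lists can leave more members. The part of this in the densities was not tested. On X, 90% of members were multi-copy and 79.2% intergenic, both the highest of any chromosome. The genome windows of X also had the highest shares of any chromosome, 30.3% multi-copy and 69.8% intergenic. Single-copy members were sparsest on X, at 1.70 per Mb, compared with 5.18 on chromosome 11.

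**Figure D5:**
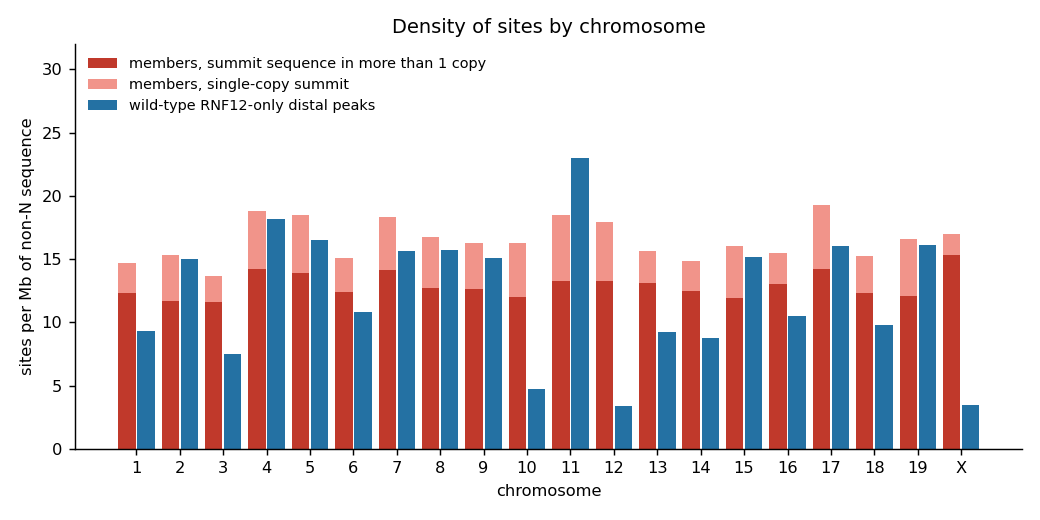
Members per Mb of non-N sequence (y axis) by chromosome (x axis), split into multi-copy (dark) and single-copy (light) summits, beside wild-type RNF12-only distal peaks per Mb. Members range from 13.7 to 19.3 per Mb, while wild-type-only peaks drop to 4.70, 3.38 and 3.46 on chromosomes 10, 12 and X.

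Within chromosomes some members were clustered. Another member lay within 10000 bp of 49.4% of members, and the median bin of 1 Mb held 14.0. The fullest bins, chosen for their counts, were chromosome 6 from 114000001 to 115000000 with 114 members (95.6% multi-copy), chromosome 10 from 80000001 to 81000000 with 79, chromosome 4 from 42000001 to 43000000 with 78 (97.4%), chromosome 3 from 93000001 to 94000000 with 68 (95.6%, the Flg2 locus) and chromosome 7 from 28000001 to 29000000 with 61 (73.8%). The chromosome 10 bin was the exception, with 15.2% multi-copy members and 55 protein-coding genes, among them Mknk2 and Sppl2b. In the fullest 20 kb stretch, at Flg2, 50 members stood beside 3 wild-type RNF12 peaks and 0 REX1 peaks. In an intergenic 20 kb stretch of chromosome 6 (114600001 to 114620000), 16 members, 10 shared mutant peaks, 18 wild-type peaks and 13 REX1 peaks lay side by side.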

How the data were processed

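Per the labels and the paper's methods, reads were trimmed with Trim Galore 0.6.7, aligned with Bowtie2 2.5.0 to mm10 masked at strain differences, and handled with SAMtools 1.10. The authors called narrow peaks with MACS2 2.2.7.1 from 1 library per list. The deposited columns used were the fold enrichment, a ratio to the control, and −log10 q. The −log10 p and the score were deposited but not used here. The lists give no read totals, so depth is unknown. The control libraries were not analysed here, and which control stands behind each list was not settled.

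Overlaps of 1 bp, distances to the TSSs of all transcripts in GENCODE release M21, strings within 50 bp of summits and 250 to 350 bp away, and copies of the 32 summit bases (both strands, chromosomes 1 to 19, X and Y) were computed with Python 3.11.15, numpy 2.4.6, pandas 2.3.3 and numba 0.67.0 on the RefSeq copy of GRCm38, the build named mm10. The kind of soft-masking is not stated with it. Each step was tested on simulated data. Counts in gene bodies count a member in every gene that covers it. Members, strings and gene lists were chosen with earlier results of these data known. Named regions are the 5 highest by fold enrichment, overall and with single-copy words, named genes the 10 coding genes with most members, the 5 with most per Mb among those with at least 5 members and up to 4 per list, and named words the 5 with the largest difference from the flanks. Alternatives changed the thresholds, overlap, TSS distance and annotation, copy number, chromosomes and window. The result for 1 listed gene is not reported here.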

Additional observations from a re-analysis of the deposited data

Results flagged for a closer look

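Mutant-only peaks were also found outside the chromosomes analysed above, in sequence that the comparisons do not use. On chromosome Y there were 742, although the cells are labelled female. Of these, 98.1% had a multi-copy summit word, with a median of 108 copies on chromosomes 1 to 19, X and Y, and a median fold enrichment of 7.49. The lists as a whole had 975 mutant, 238 wild-type RNF12 and 201 REX1 peaks on Y, with 97.2%, 95% and 90.5% multi-copy summits. On unplaced scaffolds there were 204 mutant-only peaks, whose sequence was not analysed here. The source of these peaks was not tested.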

How the results depend on the processing

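Depth is unknown, each list rests on 1 library, and intervals cover counting error between peaks only, so a move past an interval says little of replicates. Leaving out libraries and a paired analysis could not be done. No paired analysis was possible because each list comes from 1 library and no test was made. Of 48 alternatives for the main results, 32 moved the value by more than its interval or, for a count, by over 1.5 times. The cause was not tested. With the 20000 strongest peaks of each list there were 9575 members, 72.6% outside genes, 94.5% soft-masked, 94.9% multi-copy, a B1 ratio of 2.19 and a chromosome 12 ratio of 0.939 (0.851 to 1.04), now below 1. With single-copy summits only there were 8958 members, 37.5% outside genes, below the 54.5% of genome windows, 34.2% soft-masked, a B1 ratio of 3.79 and a chromosome 12 ratio of 1.35. The remaining moves, in the order outside genes, soft-masked, multi-copy and B1 ratio, were 59.6%, 85.7%, 83.6% and 18.2 at a −log10 q of at least 5, 56.2%, 76.8%, 75.1% and 14.7 with 50% overlap, and 58.7%, 84.2%, 81.5% and 17.8 with a gap of 500 bp. Beyond 3 kb from TSSs, the first 3 were 60.8%, 83.2% and 80.7%. With coding TSSs only, 56.0% were outside genes and 79.8% soft-masked. Without chromosomes 10 and 12, 81.6% were soft-masked and 79.2% multi-copy. B1 windows of 25 and 100 bp gave ratios of 27.7 and 9.20. Of 24 alternatives for other shares, 20 moved. With the 20000 strongest peaks and with single-copy summits, the share within 1 kb of another list's peak went from 20.2% to 2.67% and 31.9%, and that of genes with a member from 16.7% to 3.54% and 7.44%. With 50% overlap the former was 34.5%, and with a gap of 500 bp 11.5%.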
